A study of Mus musculus with 14 samples.

Results

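Myeloid growth factor and cytokine receptors are the surface proteins through which CSF1, GM-CSF, G-CSF, IL-3, IL-6 and IL-1 reach blood progenitors. Genes of 9 such receptor chains (Csf1r, Csf2ra, Csf2rb, Csf2rb2, Csf3r, Il3ra, Il6ra, Il6st and Il1rap) were chosen by symbol, out of 19155 genes with a probe set of their own. All 9 were found with 1 probe set each, so no choice between probe sets was needed. Each of the 14 Affymetrix Mouse Gene ST 1.0 arrays carried RNA of 20000 cells, double-sorted from the bone marrow of C57BL/6 wild-type animals aged either 8 to 10 weeks (young) or 24 months (old). MPP3, the myeloid-biased multipotent progenitors, were Lin-, cKit+, Sca-1+, Flk2- and CD48+. The sources differ on CD150 for this gate, negative in the series text and positive in the methods of the study. MPP4, the lymphoid-biased ones, were Lin-, cKit+, Sca-1+ and Flk2+. Young MPP4 had 5 arrays and each other group had 3. They were independent biological replicates by the methods, and whether a replicate pooled several mice is not given in the sources used here.

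These receptors fall into a few designs. CSF1R is a receptor tyrosine kinase, and binding of its ligands CSF1 or IL-34 turns on the kinase of the receptor itself. The receptors of GM-CSF, IL-3, G-CSF and IL-6 have no kinase of their own and signal through bound JAK kinases and STAT proteins. Those of GM-CSF, IL-3 and IL-6 join a chain that gives ligand specificity to a chain that signals, while the G-CSF receptor is a pair of identical chains. IL1RAP is the accessory chain that joins the IL-1 receptor and recruits the adaptor MYD88. In bone marrow these receptors are known for driving progenitors towards granulocytes, monocytes and macrophages, and for the output of myeloid cells under inflammation.

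PU.1, the product of Spi1, is a transcription factor of myeloid genes that binds a purine-rich core, and several receptor genes are textbook targets of it. The letters GAGGAA, on either strand (TTCCTC on the strand of the gene), are therefore shown where they occurred within 250 bases before to 50 bases after the RefSeq start (build GRCm38.p6). Windows of 7 of the 9 receptors were in the table and Csf1r and Csf2rb had none. The motif was in 4 of the 7 windows, against 28.3% of all 32851 windows. Each line gives 30 bases, 5′ to 3′ on the gene's strand, with the motif in capitals.

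Csf2ra, chr19:61228412-61228441, minus strand, 2 copies in tandem: cctgcagatGAGGAAGAGGAAgcgggagac

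Csf3r, chr4:126024561-126024590, plus strand: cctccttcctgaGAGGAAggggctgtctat

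Il6ra, chr3:89913249-89913278, minus strand: cttcagcaccggTTCCTCaaatgtttcact

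Csf2rb2, chr15:78305871-78305900, minus strand: ctctgtgtctgcTTCCTCcagagaagtcag

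Csf2rb2, chr15:78305675-78305704, minus strand: ggcactggcaacTTCCTCaatctgctctct

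In Csf2ra the tandem copies ended 2 bases before the start, and in Csf3r and Il6ra the copy ended 80 and 64 bases before it. Csf2rb2 had 1 copy ending 161 bases before the start and 1 beginning 29 bases after it. Of 2 other motifs searched, the C/EBP type TTGCNNAA was sought on the gene's strand only, not on the opposite strand. There it was in the Il3ra window alone (5.8% of all windows). The RUNX type TGTGGT, on either strand, was in 0 of the 7 (16.8% of all windows). A match describes the letters and is not shown to be a binding site.

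A deposited value is a rank on its own array. It is the negative of ln(s), where s is the fraction of probe sets ranked no lower. A value near 0.693 is the middle of an array, higher values are brighter ranks, and differences are differences of such values, not folds. Flt3, which encodes Flk2, reached at most 2.20 on MPP3 arrays and was at least 2.77 on MPP4 arrays, as the gate requires. Kit lay between 2.63 and 3.10, and Slamf1, which encodes CD150, lay between 0.0864 and 0.251. Cd48 had means of 2.62 in young MPP3, 2.40 in old MPP3, 2.30 in young MPP4 and 2.60 in old MPP4. Its MPP4 minus MPP3 difference was -0.319 ± 0.116 (SE) in young and 0.200 ± 0.0619 (SE) in old mice (adjusted p = 0.381 and 0.407 by limma). The arrays fell into 2 sets by the dimmest 33.3% of all probe sets, a division no label describes. Every old array was in set 1, along with 3 of the 8 young arrays (replicate 1 of MPP3, replicates 1 and 2 of MPP4). Set 2 was made up of the 5 remaining young arrays. Because set 2 has no old array, age and array set cannot be told apart on those 5. Young arrays also belong to an earlier series, so age and series cannot be told apart either. Xist, a transcript of female cells, was at 1 or more on 4 of the 8 young arrays and 0 of the 6 old ones. In several marker lists old MPP3 replicate 3 lay away from the rest of its group, as given below with its receptor values. In sorted bulk samples fewer cells of a type and less RNA per cell cannot be told apart.

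No receptor differed between any groups past the threshold, an adjusted p of 0.05 by limma over all genes. In old against young MPP3 0 of 9 receptors were called (0% of all genes), and in old against young MPP4 0 of 9 (0% of all genes). In MPP4 against MPP3 0 of 9 were called in young mice (0.131% of all genes) and 0 of 9 in old mice (0% of all genes). For the difference between the age differences the count was 0 of 9 as well (0% of all genes). At an unadjusted p under 0.05 limma gave 0 of 9 receptors in each age comparison (8.19% of all genes in MPP3 and 9.77% in MPP4) and 0 of 9 between young populations (11.0%). Between old populations it gave 1 of 9 (9.83% of all genes), and for the difference between age differences 1 of 9 (6.26%), both times Il6st. The methods' test, the study's general two-sample test taken with equal variances, also called 0 receptors in each comparison after adjustment. For the difference between age differences an ordinary linear fit of all 4 groups took its place. For its arrays the study used SAM instead.

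**Figure D1:**
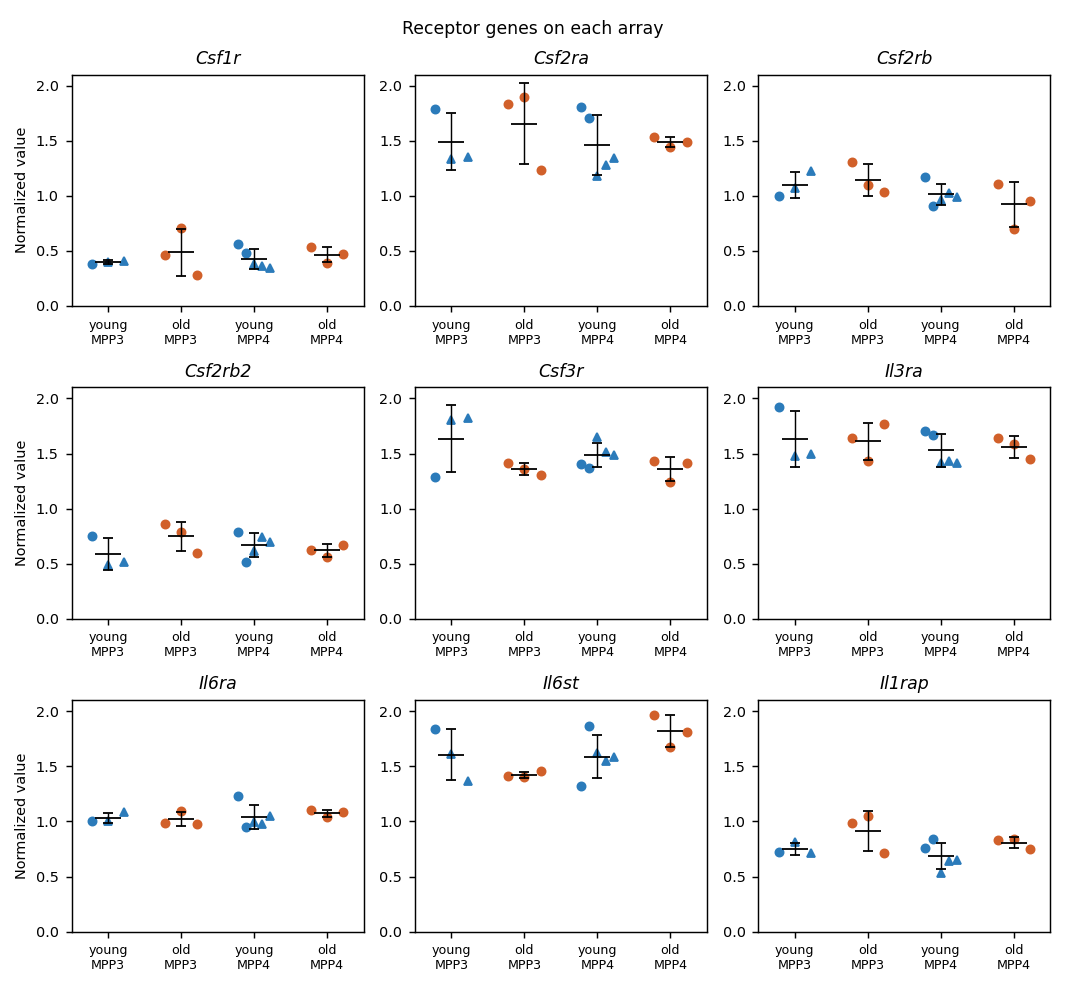
Normalized value (linear axis from 0) of the 9 receptor genes on each of the 14 arrays, by group, with blue for young and orange for old mice, circles for array set 1 and triangles for array set 2. Each group has a horizontal mark at its mean, with a bar of 1 SD to either side. The 3 old MPP4 arrays of Il6st (1.68 to 1.97) lie above the 3 old MPP3 arrays (1.41 to 1.46), while for the other receptors the groups overlap.

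Csf2ra encodes the alpha chain that binds GM-CSF. Its value was 1.79, 1.33 and 1.35 on the young MPP3 arrays and 1.84, 1.90 and 1.23 on the old ones. In MPP4 it was 1.80, 1.70, 1.18, 1.28 and 1.35 on the young arrays and 1.53, 1.44 and 1.49 on the old ones. Young MPP3, old MPP3 and young MPP4 each held arrays of 1.35 or less and arrays of 1.70 or more, and only old MPP4 was narrow. Old minus young was 0.163 ± 0.226 (SE; 95% interval -0.409 to 0.736) in MPP3 and 0.0265 ± 0.149 (SE; -0.322 to 0.375) in MPP4. The SD within groups was 0.266, larger than that of 93.6% of the 1000 genes nearest to it in mean value.

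Il3ra encodes the alpha chain that binds IL-3. Young MPP3 arrays had 1.93, 1.48 and 1.50 and old MPP3 arrays 1.64, 1.43 and 1.76. Young MPP4 arrays had 1.70, 1.67, 1.42, 1.43 and 1.42 and old MPP4 arrays 1.64, 1.59 and 1.45. The highest and the lowest of the 14 values were both in young groups, and the groups overlapped in every comparison. Differences between groups ran from -0.106 ± 0.126 (SE, n = 3 and 5) for MPP4 minus MPP3 in young mice to 0.0315 ± 0.0881 (SE) for old minus young in MPP4.

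Csf2rb encodes the beta chain shared by the GM-CSF, IL-3 and IL-5 receptors. In MPP3 it was 0.998, 1.07 and 1.23 on young and 1.31, 1.10 and 1.03 on old arrays. In MPP4 it was 1.17, 0.908, 0.965, 1.03 and 0.991 on young and 1.11, 0.700 and 0.956 on old arrays. Group means went from 0.922 ± 0.207 (SD, n = 3) in old MPP4 to 1.15 ± 0.145 (SD, n = 3) in old MPP3, the widest gap between groups for this gene. That gap of -0.225 ± 0.128 (SE; 95% interval -0.549 to 0.0997) for MPP4 minus MPP3 in old mice did not pass (adjusted p = 0.634 by limma).

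Csf2rb2 encodes a second beta chain of the mouse that serves IL-3 alone. Its values were 0.755, 0.492 and 0.519 in young MPP3 and 0.859, 0.784 and 0.599 in old MPP3. They were 0.784, 0.520, 0.612, 0.743 and 0.695 in young MPP4 and 0.625, 0.562 and 0.674 in old MPP4. Old minus young was 0.159 ± 0.101 (SE) in MPP3 and -0.0503 ± 0.0625 (SE) in MPP4. The difference between these age differences was -0.209 ± 0.118 (SE; adjusted p = 0.861 by limma). With arrays weighted by quality it was -0.384 with an adjusted p of 0.0340 by limma, the only call of a receptor under any setting. That setting called 574 of 19155 genes in this comparison, against 0 without weights. It put 4063 genes at an unadjusted p under 0.05, against 1200 without weights. Csf2rb and Csf2rb2 are near-identical neighbours with 1 other entry between them in the RefSeq table. Their probe sets share 0 of the accessions listed for them, but signal common to both genes could not be separated here.

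Csf1r encodes the receptor of CSF1 and IL-34, on which macrophages depend. Young MPP3 arrays lay close together at 0.383, 0.400 and 0.412, and old MPP3 arrays were spread over 0.464, 0.710 and 0.285. Young MPP4 arrays had 0.559, 0.477, 0.377, 0.365 and 0.340 and old MPP4 arrays 0.531, 0.391 and 0.474. The old MPP3 arrays thus held both the highest and the lowest of the 14 values. Read from the exponential scale, 49.2 to 75.2% of probe sets on an array were at or above Csf1r. Of the 1016 olfactory receptor genes, which marrow progenitors are not known to use, 76.3 to 97.2% were below it. For the other 8 receptors at least 91.5% of olfactory receptor genes were lower on every array. Levels of different probe sets are not compared otherwise, as a rank also depends on the probes. The age difference of Csf1r was 0.0878 ± 0.109 (SE) in MPP3 and 0.0417 ± 0.0579 (SE) in MPP4.

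Csf3r encodes the G-CSF receptor, which pairs with itself and drives neutrophil production. In MPP3 it was 1.29, 1.80 and 1.82 on young and 1.41, 1.36 and 1.30 on old arrays. In MPP4 it was 1.41, 1.37, 1.65, 1.52 and 1.48 on young and 1.43, 1.24 and 1.41 on old arrays. Mean values were lower in old than in young mice in both populations, with differences of -0.277 ± 0.156 (SE; 95% interval -0.670 to 0.117) in MPP3 and -0.125 ± 0.0729 (SE; -0.296 to 0.0455) in MPP4. Neither passed (adjusted p = 0.687 and 0.614 by limma). Without young MPP3 replicate 1 the MPP3 difference was -0.451 ± 0.0420 (SE; adjusted p = 0.167 by limma), and with any array left out it ran from -0.451 to -0.185. That replicate was the only young MPP3 array of set 1, so without it age and array set cannot be told apart. Within set 1 the MPP3 difference was 0.0727. The groups overlapped: young MPP3 replicate 1 lay below all old MPP3 arrays, and young MPP4 replicates 1 and 2 lay inside the old MPP4 range.

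Il6ra encodes the chain that binds IL-6. Young MPP3 arrays had 1.00, 1.01 and 1.09 and old MPP3 arrays 0.988, 1.09 and 0.977. Young MPP4 arrays had 1.23, 0.952, 0.996, 0.973 and 1.05 and old MPP4 arrays 1.10, 1.04 and 1.08. It was the steadiest receptor, with an SD within groups of 0.0802, smaller than that of most genes of like mean (11.2% of the 1000 nearest were smaller still). The 95% intervals of its age differences were -0.128 to 0.102 in MPP3 and -0.111 to 0.183 in MPP4.

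Il6st encodes gp130, the signalling chain shared by the receptors of IL-6, IL-11, LIF and oncostatin M. It was 1.84, 1.61 and 1.37 on young MPP3 arrays and 1.41, 1.41 and 1.46 on old MPP3 arrays. It was 1.32, 1.87, 1.62, 1.55 and 1.58 on young MPP4 arrays and 1.97, 1.68 and 1.81 on old MPP4 arrays. All 3 old MPP4 arrays were above all 3 old MPP3 arrays, whereas the young populations overlapped. MPP4 minus MPP3 was 0.393 ± 0.0764 (SE; 95% interval 0.199 to 0.586) in old mice, with an unadjusted p of 0.00314 and an adjusted p of 0.291 by limma over all genes. In young mice the same difference was -0.0167 ± 0.138 (SE; -0.340 to 0.306). Of the 9 receptors 1 was without overlap between old MPP3 and old MPP4, where 16.6% of all genes were without overlap. In the other comparisons 0 of 9 receptors were without overlap (14.2% of all genes by age in MPP3, 7.29% by age in MPP4 and 7.47% between young populations). Old minus young was -0.180 ± 0.120 (SE) in MPP3 and 0.229 ± 0.119 (SE) in MPP4, so the means differed in opposite directions. Without young MPP3 replicate 1, the only young MPP3 array of set 1, the MPP3 value was -0.0658. On arrays without Xist signal the MPP4 value was 0.0754. Over all arrays the difference between the age differences was 0.409 ± 0.180 (SE; 0.0151 to 0.804). Its unadjusted p was 0.0431 and its adjusted p 0.791 by limma, and the test therefore did not pass. On arrays without Xist signal this difference was 0.141 (unadjusted p = 0.396 by limma). With the replicate block its unadjusted p was 0.126 by limma, and by the ordinary linear fit of all 4 groups it was 0.0572. With 1 array left out the difference ran from 0.295 to 0.528. Over the settings tried, the adjusted p of Il6st between old populations ran from 0.139 to 0.610 and its difference from 0.310 to 0.463.

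Il1rap encodes the accessory chain through which IL-1 signals. Young MPP3 arrays had 0.727, 0.812 and 0.711 and old MPP3 arrays 0.991, 1.05 and 0.711. Young MPP4 arrays had 0.759, 0.845, 0.530, 0.644 and 0.652 and old MPP4 arrays 0.833, 0.841 and 0.748. The means were higher in old mice in both populations, by 0.168 ± 0.0975 (SE; 95% interval -0.0787 to 0.414) in MPP3 and 0.122 ± 0.0691 (SE; -0.0402 to 0.283) in MPP4. Neither passed (adjusted p = 0.692 and 0.603 by limma). Without old MPP3 replicate 2 the MPP3 value was 0.101, and without replicate 3 it was 0.271. Old MPP3 replicate 3 was as low as the lowest young MPP3 array, and all 3 old MPP4 arrays lay within the young MPP4 range. Il1r1, which binds IL-1 beside it, was not analysed here.

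**Figure D2:**
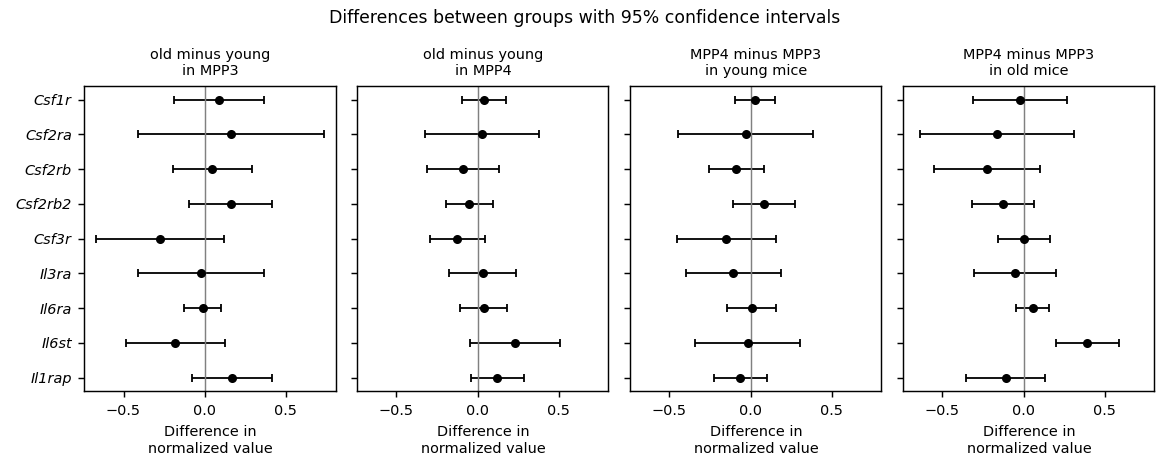
Difference in normalized value of the 9 receptor genes in 4 comparisons, with points for the limma estimates and bars for 95% confidence intervals. The interval of Il6st for MPP4 minus MPP3 in old mice (0.199 to 0.586) is the only one that leaves out 0, before any adjustment.

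The median difference of the 9 receptors was 0.0471 for old minus young in MPP3 (5 positive, 4 negative) and 0.0315 in MPP4 (6 positive, 3 negative), where the medians over all genes were 1.83e-04 and -1.71e-04. For MPP4 minus MPP3 it was -0.0291 in young mice and -0.0529 in old mice, with 6 of 9 negative each time, against -1.29e-04 and -0.00149 over all genes. The age comparisons and the population comparisons share arrays. Ordered by mean, the 4 groups followed no common order across receptors, and neighbouring groups in that order overlapped for all 9 genes. In the 4 comparisons between groups the 95% intervals reached from 0.103 to 0.572 to either side of the estimates, before any adjustment. Passing the adjusted threshold takes a larger difference than that.

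Some receptor values differed by array set within the young groups. For Csf2ra, Il3ra and Csf3r, 3 of the 9 receptors, the 3 young arrays of set 1 did not overlap the 5 young arrays of set 2, as was so for 21.5% of all genes. Csf2ra was 1.70 to 1.80 in young arrays of set 1 and 1.18 to 1.35 in those of set 2. Il3ra was 1.67 to 1.93 against 1.42 to 1.50. Csf3r went the other way, at 1.29 to 1.41 against 1.48 to 1.82. The old arrays, all in set 1, lay at 1.23 to 1.90 for Csf2ra, 1.43 to 1.76 for Il3ra and 1.24 to 1.43 for Csf3r. Old arrays were thus near the young ones of set 1 for Csf3r and spread over both young ranges for Csf2ra.

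**Figure D3:**
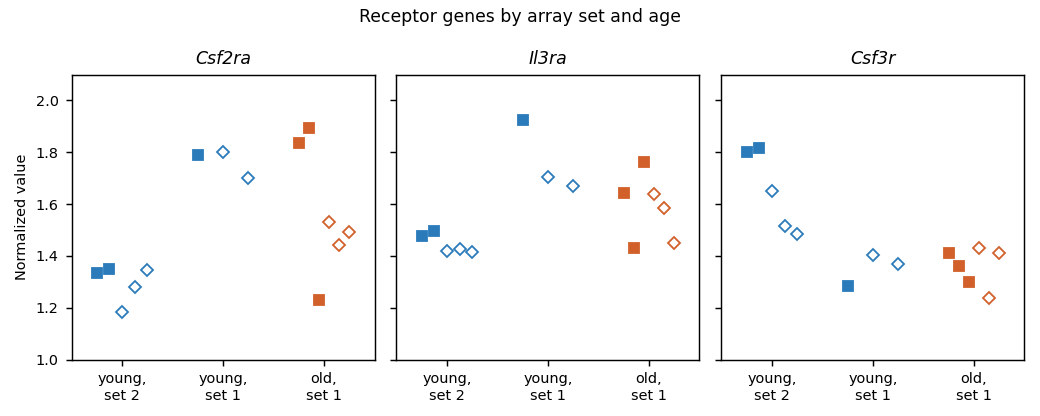
Normalized value (axis from 1.0) of Csf2ra, Il3ra and Csf3r on the arrays of young mice in set 2 and set 1 and of old mice, all in set 1, with filled squares for MPP3 and open diamonds for MPP4. The young arrays of the 2 sets do not overlap for any of the 3 genes, and Csf3r on old arrays (1.24 to 1.43) lies near that on the young arrays of set 1 (1.29 to 1.41).

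Within set 1 alone, old minus young in MPP3 rested on 1 young array and gave 0.0727 for Csf3r and -0.135 for Csf2ra, opposite in sign to the values over all arrays. In MPP4, with 2 young arrays in set 1, it gave -0.0281 for Csf3r, -0.263 for Csf2ra and -0.128 for Il3ra. For Il6st the within-set values were -0.410 in MPP3 and 0.222 in MPP4, and for Il1rap they were 0.191 and 0.00572. Between young populations, Csf3r differed by 0.102 in set 1 and by -0.259 in set 2, and Il6st by -0.239 and 0.0932. No test of age within set 2 was possible, since it has no old array. The difference between old populations lies wholly within set 1.

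Csf2ra, Csf1r and Il1rap tended to be high on the same arrays. Over the 14 arrays Pearson's r was 0.742 for Csf2ra with Il1rap, 0.735 for Csf2ra with Csf1r and 0.695 for Csf1r with Il1rap, given as a description with no test, since arrays share groups and array sets. With group means removed these were 0.775, 0.735 and 0.736. Csf3r and Il3ra went opposite ways, at -0.543 and, with group means removed, -0.784. Array set was not removed, and for both genes the young arrays of the 2 sets did not overlap. On old MPP3 replicate 3 all of Csf2ra (1.23), Csf1r (0.285) and Il1rap (0.711) were the lowest of the old MPP3 arrays. That array also had the lowest mean over 6 marker genes of committed myeloid progenitors, at 2.23 against 3.02 and 3.63 on the other old MPP3 arrays. Its mean over mast cell and basophil genes was 0.571 against 1.41 and 1.26, and over B cell genes 1.33 against 0.699 and 0.652. Its mature neutrophil mean of 0.908 lay between the 0.790 and 1.19 of the others. The part of such cells in the receptor values of this array was not tested. Without it, old minus young in MPP3 was 0.375 for Csf2ra, 0.188 for Csf1r and 0.271 for Il1rap, and 0 of 9 receptors passed. With each array of the comparison left out in turn, the difference ran from 0.0431 to 0.375 for Csf2ra, from -0.0238 to 0.188 for Csf1r and from 0.101 to 0.271 for Il1rap.

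The genes whose values were most like those of a receptor over the 14 arrays were Cmtm7 (r = 0.908), Ppp1r14c (0.897) and Atp5a1 (0.892) for Csf2ra, and Phldb3 (0.982), Nccrp1 (0.972) and Mnt (0.961) for Il3ra. For Csf3r they were Sema4g (0.943), Zfp872 (0.931) and C9 (0.925), and for Csf1r Mocs1 (0.958), Dhdh (0.924) and Hspa2 (0.906). For Csf2rb they were Vmn2r66 (0.797), Ldhal6b (0.789) and Fkbp2 (0.771), and for Csf2rb2 Adam39 (0.872), Hsd17b13 (0.848) and Osr1 (0.830). For Il6ra they were Rbis (0.884), Olfr224 (0.851) and Plbd2 (0.848), for Il6st Kctd14 (0.871), Olfr250 (0.870) and Atg14 (0.812), and for Il1rap Mgat5 (0.918), Nostrin (0.910) and Cep128 (0.909). No other receptor of the 9 was among these genes. They were picked as the highest correlations over all named genes on 14 arrays, so high r is favoured by the choice itself. Array set was not removed and no test was made. Olfr224 and Olfr250 are olfactory receptor genes, which marrow progenitors are not known to use.

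Of the marker lists of other cell types, 0 genes were called in any comparison, and their mean values per array were as follows. The 6 committed myeloid progenitor genes measured of 7 listed had a mean value of 1.67 to 2.51 on young and 2.23 to 3.63 on old MPP3 arrays, and of 1.02 to 1.28 on young and 1.28 to 1.31 on old MPP4 arrays. All 6 had lower means in MPP4 than in MPP3 at either age. The 10 mature neutrophil genes had means of 0.527 to 0.735 and 0.790 to 1.19 in young and old MPP3, against 0.314 to 0.461 and 0.335 to 0.482 in young and old MPP4. From young to old MPP3, 7 of these genes had a higher mean and 3 a lower one (Lcn2, Mmp9 and Retnlg). The 9 monocyte and macrophage genes measured of 10 lay at 0.888 to 0.997 in old MPP3 and at 0.700 to 0.796 in the other groups. The 8 mast cell and basophil genes lay at 0.434 to 0.788 in young MPP3, 0.571 to 1.41 in old MPP3 and 0.251 to 0.418 in MPP4. From young to old MPP3, 7 monocyte and macrophage genes had a higher mean and 2 a lower one. Among mast cell and basophil genes 7 were higher and 1 was lower. B cell genes (7 of 8 measured) ranged from 0.583 to 1.33, T and NK cell genes (7 of 8) from 0.559 to 0.799, erythroid genes (5 of 8) from 0.562 to 1.22 and megakaryocyte genes (5 of 8) from 0.559 to 0.840. The part of such cells in the receptor values was not tested.

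The ligands of these receptors, 15 of 15 measured, had 0 genes called in each comparison, and 1 lower gene at an unadjusted p under 0.05 by limma, in old MPP4 (5.27% of all genes). Il11, a ligand that signals through gp130, differed by -0.0537 ± 0.0255 (SE) in old MPP3 and -0.0777 ± 0.0313 (SE) in old MPP4. Il1a differed by 0.0294 ± 0.0233 in old MPP3, and Il34, a ligand of CSF1R, by 0.150 ± 0.0863 in old MPP4. For MPP4 minus MPP3, Csf1 differed by -0.0636 ± 0.0379 and Il1b by 0.0725 ± 0.0438 in young mice, and Csf2, the GM-CSF gene, by -0.0390 ± 0.0192 and Csf3, the G-CSF gene, by 0.0694 ± 0.0374 in old mice. The difference between age differences was 0.0900 ± 0.0491 for Csf1 and -0.156 ± 0.112 for Il1b. The mean of the 15 ligands was between 0.286 and 0.345 on every array. Olfactory receptor genes had a median of 0.0993 and a 95th percentile of 0.575 over the arrays, so these means lay within their range. Il1a itself was at 0.0694 in young and 0.0988 in old MPP3. Differences at this level are not shown to be those of expressed genes.

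Of the 26 other receptors of these families 21 were measured, and 0 were called in each comparison. Ifnar2, a chain of the type I interferon receptor, differed by -0.139 ± 0.0273 (SE) in old MPP3, and Il18rap, the accessory chain of IL-18, by -0.257 ± 0.0913. In old MPP4 Ifngr1, the ligand-binding chain for interferon gamma, differed by 0.320 ± 0.0614 (adjusted p = 0.298 by limma) and Il18r1 by 0.489 ± 0.173. Flt3 differed by 0.993 ± 0.188 between young and 1.61 ± 0.183 between old populations, but it is part of the gate. Il5ra, the IL-5 alpha chain, differed by -0.123 ± 0.0281 between young populations and Ifnar2 by 0.255 ± 0.0236 between old ones (adjusted p = 0.188 and 0.203 by limma). Il5ra was at 0.231 in young MPP3 and 0.108 in young MPP4, under the 95th percentile of olfactory receptor genes (0.575). Between old populations 6 of the 21 were higher in MPP4 at an unadjusted p under 0.05 (6.19% of all genes), Flt3 and Ifnar2 among them. The difference between age differences was 0.417 ± 0.154 for Il18rap and 0.0953 ± 0.0376 for Il5ra.

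JAK kinases, STATs and their feedback inhibitors, 18 of 20 measured, had 0 genes called in each comparison. In old MPP3 12 of the 18 had a lower mean, with a median of -0.0568. Socs3, an inhibitor of gp130 and G-CSF receptor signalling, differed by -0.140 ± 0.0362 (SE; adjusted p = 0.507 by limma) and the kinase gene Pim1 by -0.203 ± 0.0724. In old MPP4 Stat6 differed by 0.162 ± 0.0507 and Cish, an inhibitor induced by STAT5, by -0.0826 ± 0.0293. Between young populations Stat5a differed by -0.189 ± 0.0501 and Socs2 by -0.173 ± 0.0572, and between old ones Stat4 by 0.379 ± 0.0968 and Socs3 by 0.0537 ± 0.0239. Socs2 was at 0.553 in young MPP3 and 0.380 in young MPP4, under the 95th percentile of olfactory receptor genes (0.575). The difference between age differences was 0.195 ± 0.0794 for Jak2 and 0.174 ± 0.0792 for Socs2.

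The adaptors and RAS, MAP kinase and PI3 kinase genes, 19 of 26 measured, had 0 called, with 12 of 19 lower in old cells of each population. Dok2, an inhibitory adaptor, differed by -0.256 ± 0.0711 (SE) in old MPP3 and -0.217 ± 0.0816 in old MPP4. The kinase gene Syk differed by -0.167 ± 0.0562 in old MPP3, and the kinase gene Map2k1 by -0.188 ± 0.0440 in old MPP4. Pik3r1, the regulatory subunit of PI3 kinase, differed by 0.300 ± 0.0782 between young and 0.247 ± 0.0349 between old populations (adjusted p = 0.238 and 0.222 by limma). Map2k1 differed by 0.155 ± 0.0482 between young and Plcg2 by 0.247 ± 0.0733 between old populations. For the difference between age differences Map2k1 was at -0.280 ± 0.0906 and Cblb at 0.210 ± 0.112.

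The IL-1 receptor signalling genes, 15 of 19 measured, had 0 called. Irak3, an inhibitor of the pathway, differed by -0.585 ± 0.0914 (SE) between young populations (adjusted p = 0.0854 by limma) and by -0.587 ± 0.213 between old ones (adjusted p = 0.481). Ikbkb, the IKK beta kinase, differed by -0.238 ± 0.0618 between young populations, by -0.135 ± 0.0564 in old MPP3 and by 0.229 ± 0.0964 for the difference between age differences. Traf6 differed by 0.155 ± 0.0528 in old MPP3, Tollip by 0.143 ± 0.0568 in old MPP4 and Irak1 by -0.100 ± 0.0477 in old MPP4 and -0.119 ± 0.0831 for the difference between age differences. Il1r2, the decoy receptor, differed by 0.135 ± 0.0610 between old populations. Its means were 0.263 in old MPP3 and 0.398 in old MPP4, under the 95th percentile of olfactory receptor genes (0.575).

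Transcription factors of myeloid receptor genes, 9 of 9 measured and Spi1 among them, had 0 called. Cebpe, a factor of granulocyte maturation, differed by 0.369 ± 0.162 (SE) in old MPP3, -0.112 ± 0.0539 in old MPP4, -0.216 ± 0.0505 between young populations and -0.696 ± 0.164 between old ones (adjusted p = 0.343 by limma). Klf4, a factor of monocytes, differed by -0.198 ± 0.0794 in old MPP3 and -0.344 ± 0.118 in old MPP4. Myb differed by -0.113 ± 0.0442 between young and -0.184 ± 0.0479 between old populations. For the difference between age differences Cebpe was at -0.481 ± 0.161 and Cebpa, a factor of granulocyte and monocyte progenitors, at -0.456 ± 0.206. Between old populations 3 of the 9 were lower in MPP4 at an unadjusted p under 0.05 (3.64% of all genes).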

How the data were processed

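RNA of sorted progenitors was amplified with NuGEN kits and hybridized to Affymetrix Mouse Gene ST 1.0 arrays. The authors normalized the arrays with RMA (version not stated), then mapped each array onto a standard exponential distribution, and these deposited values were used as a score without further scaling. The scale keeps ranks, so real shifts common to most genes are lost. Of 22115 probe sets, 2135 were not in the platform annotation and 744 had several symbols. Both were left out, and the probe set with the highest mean was kept for 76 genes. Linear models were fitted with limma 3.58.1 (lmFit, eBayes) in R 4.3.3 within the groups compared, and in all 4 groups for the difference between age differences, two-sided, with Benjamini-Hochberg adjustment over 19155 genes. The label permutations of the study's SAM analysis were not run. All 9 receptors matched RefSeq by Entrez number. The number of arrays limits precision. The fits were tested on simulated data. Array sets came from average-linkage clustering of normal scores. Named pathway genes were those with the 2 largest absolute moderated statistics per list and comparison, and genes like a receptor were the 3 with the highest Pearson correlation, unnamed gene models left out. Receptors, lists and tests were chosen with earlier results of these data known. Alternatives were rank-based normal scores, centring on array medians, leaving out dim genes, all probe sets with 1 gene, limma with a trend in the variance, array weights, a replicate block, 1 fit for all groups, the methods' test, array set as a term, arrays lacking Xist and each replicate left out. Figures were drawn with Python 3.11.15.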

Additional observations from a re-analysis of the deposited data

How the results depend on the processing

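Across 855 alternative values of the 45 receptor differences, 791 kept their direction and side of the threshold. Another 63 changed sign and 1 passed the threshold. Of those that changed sign, 61 were smaller than their SE to begin with. The cause of the sign changes was not tested. Not all 855 values could change direction. Receptor estimates stayed as they were without dim genes and with all probe sets of 1 gene. The same held for a variance trend, the methods' test and 1 fit for all groups. By age in MPP3 and between old populations, where replicate numbers are balanced, the replicate block also left the estimates as they were. Between old populations no array had Xist signal, so leaving such arrays out repeated the main fit. In MPP3 it was the same fit as leaving out young replicate 1, and both were counted. The count of receptors called moved from 0 to 1 under array weights, for the difference between age differences (Csf2rb2), and stayed 0 otherwise. With array weights, Il3ra became 0.102 for age in MPP3, Csf3r -0.0628 between old populations, and Csf1r -0.0262, Il6ra -0.0456 and Il6st 0.0996 between young populations. With array set as a term, age differences in MPP3 became -0.135 for Csf2ra, -0.00703 for Csf2rb2, 0.0727 for Csf3r and 0.0150 for Il6ra. In MPP4 they became -0.0525 for Csf1r, -0.263 for Csf2ra, -0.128 for Il3ra and -0.0138 for Il6ra. Set 2 has no old array, so these are the differences within set 1 alone. They rest on 1 young array in MPP3 and 2 young arrays in MPP4. On arrays without Xist signal, Csf2rb became -0.00341 and Il3ra 0.125 for age in MPP3, Csf2rb2 0.0546 for age in MPP4, Csf2ra 0.0999, Il3ra 0.0571, Il6ra -0.0735 and Il6st 0.251 between young populations, and Il3ra -0.110 for the difference between age differences. With normal scores, Csf1r became 0.00203 and Csf3r -0.00322 between old populations. Same-numbered arrays did not deviate together in every pair, with correlations of their deviations from -0.192 to 0.407. With so few arrays per group this cannot settle whether the numbers pair the arrays. With the replicate block, Csf1r became -0.00554, Csf2ra -0.0735 and Il3ra -0.0383 for age in MPP4. Csf2ra became 0.0708 between young populations and Il3ra -0.0166 for the difference between age differences. Genes called between young populations went from 25 to 0 with that block. With each replicate left out, age differences in MPP3 ran from -0.0238 to 0.188 for Csf1r, -0.0340 to 0.112 for Csf2rb, -0.1000 to 0.125 for Il3ra and -0.0508 to 0.0131 for Il6ra. In MPP4 they ran from -0.0433 to 0.111 for Csf2ra, -0.184 to 0.0204 for Csf2rb and -0.00915 to 0.0856 for Il3ra. Between young populations the ranges were -0.00857 to 0.0460 for Csf1r, -0.114 to 0.120 for Csf2ra, -0.184 to 0.0401 for Il3ra, -0.0405 to 0.0329 for Il6ra and -0.136 to 0.0979 for Il6st. Between old populations they were -0.121 to 0.0907 for Csf1r, -0.0337 to 0.0628 for Csf3r and -0.144 to 0.0232 for Il3ra. For the difference between age differences they were -0.147 to 0.0656 for Csf1r, -0.0930 to 0.132 for Il3ra and -0.149 to 0.0207 for Il1rap. Over all genes, the 25 calls between young populations became 51 with normal scores, 59 without dim genes, 48 with a variance trend, 1808 with array weights, 9 by the methods' test, 271 with array set, 0 without Xist arrays and 8 to 108 with a replicate left out. In the comparisons with 0 calls over all genes, the alternatives gave 0 to 9 by age in MPP3, 0 to 304 by age in MPP4, 0 to 27 between old populations and 0 to 574 for the difference between age differences, the highest with 1 fit for all groups (MPP3 and old populations) or array weights (the others). Array set could not be a term between old populations, which lie in set 1, and each receptor had no other probe set to try.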
